A study of Danio rerio with 6 samples.

Results

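Photoreceptor fate in the zebrafish retina is set by a small group of transcription factors, and 10 of their genes were followed here: crx, otx5, six7, rx1, rx2, nr2e3, nrl, thrb, tbx2b and neurod1. They were taken by gene symbol from the 15455 RefSeq transcripts in the deposited tables, and each of the 10 had exactly 1 transcript. All 60 of their deposited values, 10 genes in 6 libraries, were whole numbers.

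As background, rods and cones arise from shared retinal progenitors that leave the cell cycle under neurogenic factors such as Neurod1. Homeodomain proteins encoded by the otx and rx genes then switch on the genes of the light response in both cell types. Nrl and Nr2e3 favour the rod programme, whereas Tbx2b, the thyroid hormone receptor Thrb and Six7 act in particular cone types of zebrafish. The opsins and the phototransduction cascade are the late products of this network.

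RNA came from the head and trunk of embryos at 72 hpf, the tails having been taken for genotyping, in 3 wild-type pools and 3 hnrnpul1/1l mutant pools of 8 embryos each. Mutants were homozygous at both hnrnpul1 and hnrnpul1l, which carry CRISPR-Cas9 insertions predicted to truncate the proteins (by default in the study the alleles ca54 and ca52), and their mothers were hnrnpul1l mutants. The study describes the controls once as siblings and once as offspring of an incross of hnrnpul1l heterozygotes. Homozygous mutant mothers have no wild-type offspring, so the wild-type and mutant pools had different mothers. Parentage and genotype therefore cannot be told apart. Each library is a bulk sample, in which fewer photoreceptors and less RNA per photoreceptor cannot be told apart, and several of the 10 genes are also active outside the retina.

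Library totals were 40891309 to 62580215 counts, and values are given below as CPM, the standard unit that divides each count by its library total, here after edgeR's TMM scaling between libraries. The mutated gene hnrnpul1 itself had 118 to 127 CPM in the wild-type pools and 22.1 to 47.7 CPM in the mutant pools. Of the 13553 transcripts tested with edgeR's quasi-likelihood test, 0 (0%) had a Benjamini-Hochberg adjusted p below 0.05, while 625 had an unadjusted p below 0.05 with a lower level in mutants and 566 with a higher level. Scaling by total counts in place of TMM turned these counts into 1042 and 331. The smallest p that an exact permutation of 3 pools against 3 allows is 0.1. SE denotes the standard error of the fitted log2 difference.

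Among the 10 genes, the homeobox genes six7, rx1, rx2 and crx lay lower in every mutant pool than in any wild-type pool. This held for 9.08% of all transcripts tested. For six7, rx1 and rx2 the mutant means were 51.5%, 57.6% and 44.4% of the wild-type means, and for crx 69.5%. The levels of nr2e3, thrb, tbx2b, neurod1 and otx5 overlapped between the genotypes, as did those of nrl, at 0 to 1.68 CPM. After adjustment over all transcripts, 0 of the 10 had a p below 0.05.

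**Figure D1:**
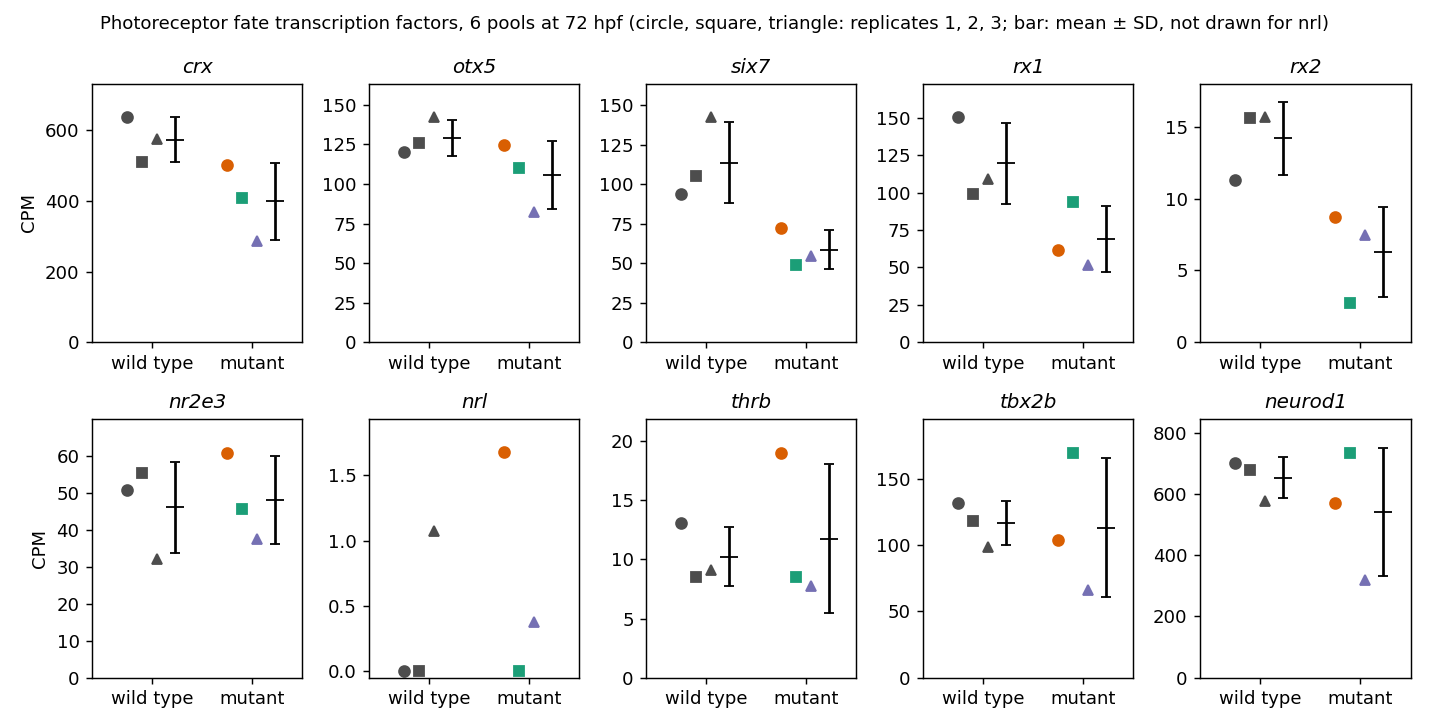
Level of each of the 10 transcription factor genes in CPM (vertical axis, starting at or just below 0, scaled for each gene) in 3 wild-type and 3 mutant pools, with the mean and SD beside the points except for nrl. The mutant points of crx, six7, rx1 and rx2 all lie below the wild-type points, whereas those of the other genes overlap.

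The Otx-type homeodomain gene crx, which activates photoreceptor genes in the retina and the pineal organ, stood at 636.8, 510.4 and 574.9 CPM in wild-type replicates 1 to 3, against 502.3, 408.6 and 285.6 CPM in the mutants. The groups did not overlap, although mutant replicate 1 came close to wild-type replicate 2, and mutant replicate 3 was the lowest. The log2 fold change of mutants against wild types was -0.53 (SE 0.25, unadjusted p = 0.0656 and adjusted p = 0.594 from edgeR). Without mutant replicate 3 this fold change was -0.34, and without mutant replicate 1 it was -0.71. The unadjusted p of crx was below 0.05 in 6 of the 15 alternative fits.

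Its relative otx5, expressed in the pineal organ and the retina, differed less. Its wild-type values were 120, 125.7 and 142.1 CPM, against 124.8, 110.1 and 82.6 CPM in the mutants. Mutant replicate 1 was inside the range of the wild types and replicates 2 and 3 below it, which gave a log2 fold change of -0.29 (SE 0.21, edgeR adjusted p = 0.771).

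For six7, a homeobox gene that zebrafish need for the opsins of middle-wavelength (green) cones, the wild-type values were 93.8, 105.2 and 142.4 CPM, against 72.4, 48.8 and 54.8 CPM in the mutants. Every mutant pool was below every wild-type pool, and the difference of the means exceeded the SD within either group (113.8 ± 25.4 and 58.7 ± 12.3 CPM, SD, n = 3 each). On the log2 scale the fold change was -0.96 (SE 0.24, unadjusted p = 0.00466 and adjusted p = 0.407 from edgeR). This was the smallest p among the 10 genes. Its unadjusted p stayed below 0.05 in all 15 alternative fits, each single library left out included, with log2 fold changes between -1.11 and -0.76. DESeq2 gave an adjusted p of 0.0471 for six7, the only gene of the 10 that it called, where it called 0.883% of the 13246 transcripts with an adjusted p as lower in mutants.

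The retinal homeobox genes rx1 and rx2 encode paired-type homeodomain proteins of the eye field that remain active in photoreceptors and in the retinal margin. For rx1 the wild-type values were 150.2, 98.9 and 109.2 CPM, against 61.5, 93.5 and 51.3 CPM in the mutants. Mutant replicate 2 came close to the lowest wild-type pool, and the log2 fold change was -0.80 (SE 0.28, unadjusted p = 0.0230 and adjusted p = 0.499 from edgeR).

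The transcript of rx2 gave 11.3, 15.6 and 15.7 CPM in wild-type replicates 1 to 3, against 8.68, 2.73 and 7.47 CPM in the mutants. Here mutant replicate 2 was the lowest instead of the nearest to wild type, with 102 counts. The log2 fold change was -1.17 (SE 0.46, unadjusted p = 0.0363 and adjusted p = 0.548 from edgeR), and without mutant replicate 2 it was -0.78. The unadjusted p of rx1 rose above 0.05 when wild-type replicate 1 or mutant replicates 1 or 3 were left out (0.0904, 0.0693 and 0.0600 in edgeR). For rx2 it did so without wild-type replicates 2 or 3 or mutant replicates 2 or 3 (0.0943, 0.0846, 0.0524 and 0.0530 in edgeR).

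Of the factors tied to rods, the orphan nuclear receptor gene nr2e3 stood at 50.6, 55.2 and 32.1 CPM in wild-type replicates 1 to 3, against 60.7, 45.5 and 37.3 CPM in the mutants. The lowest pool of all was a wild type and the highest a mutant. Its log2 fold change of 0.06 had a 95% interval from -0.61 to 0.72 (edgeR adjusted p = 0.985) and turned to -0.06 under scaling by total counts. This interval includes the estimate for crx.

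The Maf-family gene nrl, required for rods in mice, was at 0 in wild-type replicates 1 and 2 and in mutant replicate 2. It had 72, 100 and 20 counts in wild-type replicate 3 and mutant replicates 1 and 3, equal to 1.08, 1.68 and 0.373 CPM. A count of 0 allows up to 3 counts in a library, counting error only, and no fold change is given for this gene.

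The thyroid hormone receptor gene thrb, needed for long-wavelength (red) cones in zebrafish, stood at 13.1, 8.49 and 9.09 CPM in wild-type replicates 1 to 3, against 19.0, 8.5 and 7.71 CPM in the mutants. Mutant replicate 1 was the highest of all pools and mutant replicate 3 the lowest, and the log2 fold change of 0.20 (95% interval -0.80 to 1.2, edgeR adjusted p = 0.953) became -0.31 without mutant replicate 1. A single RefSeq transcript represents thrb here, so the receptor isoform of cones was not measured apart from others.

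For tbx2b, a T-box gene that directs precursors to the ultraviolet cone fate in zebrafish and is also active in the heart, ear and other tissues, the wild-type pools had 131.9, 118.3 and 98.8 CPM. The mutant pools had 103.6, 169.6 and 65.9 CPM, so mutant replicate 2 was the highest and mutant replicate 3 the lowest of all. The log2 fold change was -0.04 (95% interval -0.82 to 0.73, edgeR adjusted p = 0.990), and without mutant replicate 3 it was 0.23.

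The basic helix-loop-helix gene neurod1, active in photoreceptor precursors and also in brain, ear and endocrine pancreas, stood at 702.0, 679.7 and 577.9 CPM in wild-type replicates 1 to 3, against 571.1, 734.7 and 318.4 CPM in the mutants. Again mutant replicate 2 was the highest and mutant replicate 3 the lowest. The log2 fold change of -0.27 (95% interval -0.97 to 0.43, edgeR adjusted p = 0.886) was -0.0044 without mutant replicate 3.

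Taken as a list, 3 of the 10 genes were lower in mutants at an unadjusted p below 0.05 in edgeR, where 4.61% of all transcripts tested were, and 0 were higher, where 4.18% of all were. There were 4 genes with every mutant pool below every wild-type pool, against 9.08% of all transcripts, and 0 with every mutant pool above, against 7.71%. A log2 fold change below 0 was found for 7 of the 10, and for 50.9% of all transcripts. The median log2 fold change was -0.28 over the 10 genes and -0.29 over the 9 without nrl, beside -0.01 over all transcripts. Scaling by total counts moved the median of all transcripts to -0.13 and that of the 10 genes to -0.41. Without mutant replicate 1 the median of the 10 was -0.56 and 3 genes had an unadjusted p below 0.05. Without mutant replicate 3 the median was -0.07 and only six7 did.

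**Figure D2:**
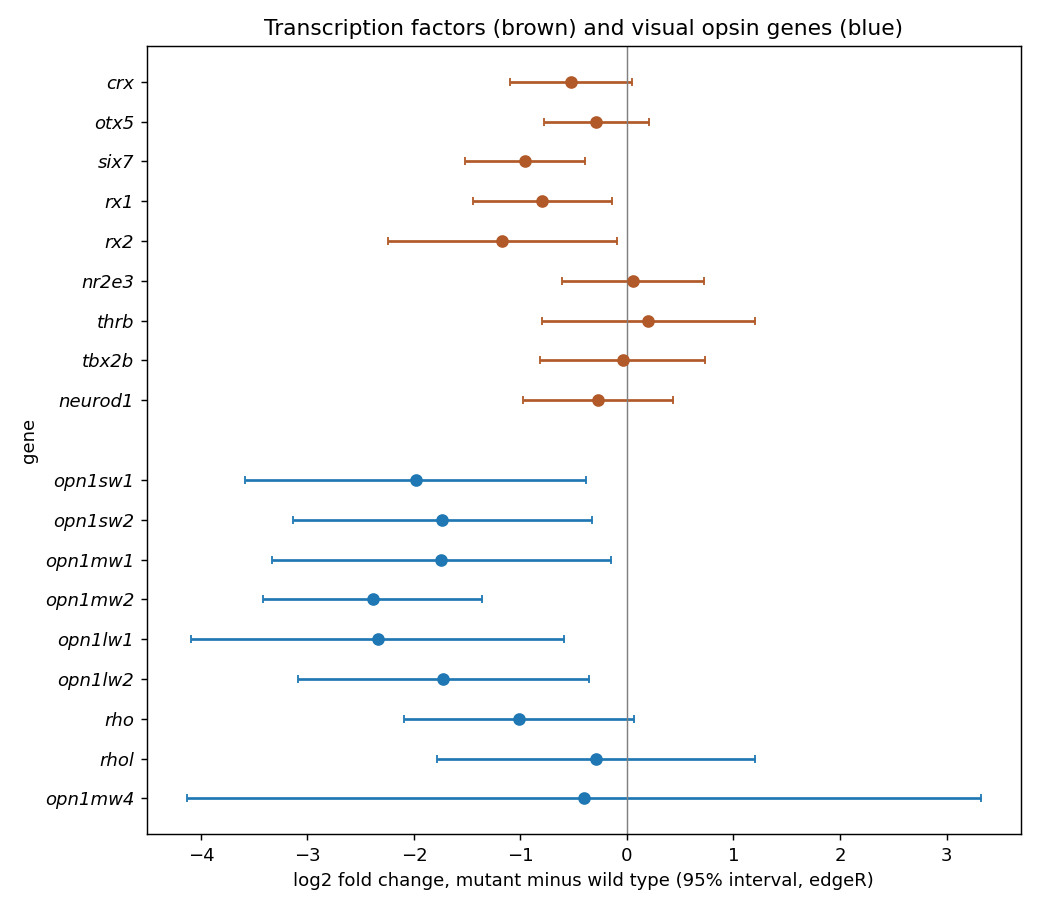
Log2 fold change of mutants against wild types with its 95% interval (horizontal axis) for 9 transcription factor genes, nrl left out, and the 9 visual opsin genes tested (vertical axis). The intervals of six7, rx1, rx2 and the 6 cone opsin genes opn1sw1 to opn1lw2 lie below 0, whereas those of the other factors and of rho, rhol and opn1mw4 include it.

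The comparison with the opsin genes asks whether these regulators moved as much as the genes downstream of them. Of 9 visual opsin genes tested, 6 were lower in mutants at an unadjusted p below 0.05, against 4.61% of all transcripts. Every mutant pool was below every wild-type pool for 7, against 9.08% of all, and the median log2 fold change was -1.74. In edgeR none of the 9 passed the adjusted threshold, and the smallest adjusted p was 0.350. That value belonged to opn1mw2, an opsin gene of green cones, at 37.2 to 42.2 CPM in the wild types and 3.16 to 10.8 CPM in the mutants. This is a log2 fold change of -2.39 (SE 0.44). DESeq2 called opn1mw2 alone among the opsins, where it called 0.883% of the 13246 transcripts as lower.

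The other cone opsins with separated groups were opn1sw1 of ultraviolet cones (log2 fold change -1.98, SE 0.69), opn1sw2 of blue cones (-1.74, SE 0.61), opn1mw1 of green cones (-1.74, SE 0.69), opn1lw1 of red cones (-2.34, SE 0.76) and opn1lw2 of red cones (-1.72, SE 0.59). The rod opsin gene rho was at 773.4 to 923.1 CPM in the wild types and 153.8 to 688.4 CPM in the mutants, a log2 fold change of -1.01 (SE 0.47). The minor genes rhol and opn1mw4 overlapped between genotypes at 2.37 to 15.4 CPM and 0.0504 to 1.72 CPM, with log2 fold changes of -0.29 (SE 0.65) and -0.41 (SE 1.61). The gene opn1mw3, at 0.427 CPM in wild-type replicate 1 and 0 in the other libraries, was not tested.

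Genes of the cone cascade and outer segment gave a median log2 fold change of -1.35 over 23 genes. Of these, 10 were lower at an unadjusted p below 0.05 and 15 separated between genotypes, against 4.61% and 9.08% of all transcripts. Examples among the separated genes were gnat2, the cone transducin gene (-1.96, SE 0.62), pde6c, the cone phosphodiesterase gene (-2.05, SE 0.59), and arr3a, a cone arrestin gene (-1.75, SE 0.43). Over the whole cone list the log2 fold changes ran from -2.07 to 1.06, with 3 of the 23 above 0. The highest came from a gene at 0 to 1.21 CPM. The 16 genes of the rod list had a median of -0.56, with 4 lower at an unadjusted p below 0.05 and 5 separated. Of the 4, prph2a, a peripherin gene of the disc rim in both rods and cones, was at -2.40 (SE 0.68). The others were saga, a rod arrestin gene (-0.58, SE 0.24), gnb1a (-0.81, SE 0.27) and rbp4l (-1.48, SE 0.48). Rod-list genes with overlapping pools included gnat1 (-0.53, SE 0.42), gngt1 (-0.63, SE 0.37) and pde6a (-0.35, SE 0.67), picked after their values were seen. The cone median was -0.88 without mutant replicate 1 and -1.97 without mutant replicate 3. The rod median was -0.28 without mutant replicate 1, -0.37 without wild-type replicate 1 and -0.85 without mutant replicate 3. DESeq2 called 5 genes of the cone list as lower, with gnat2, pde6c and arr3a among them, and prph2a of the rod list. Its share over all was 0.883% of the 13246 transcripts. No gene of the 3 lists passed the adjusted threshold in edgeR with all 6 libraries. Without mutant replicate 3, prph2a was the single transcript of the whole table that did (log2 fold change -3.76, adjusted p = 0.0229 in edgeR).

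**Figure D3:**
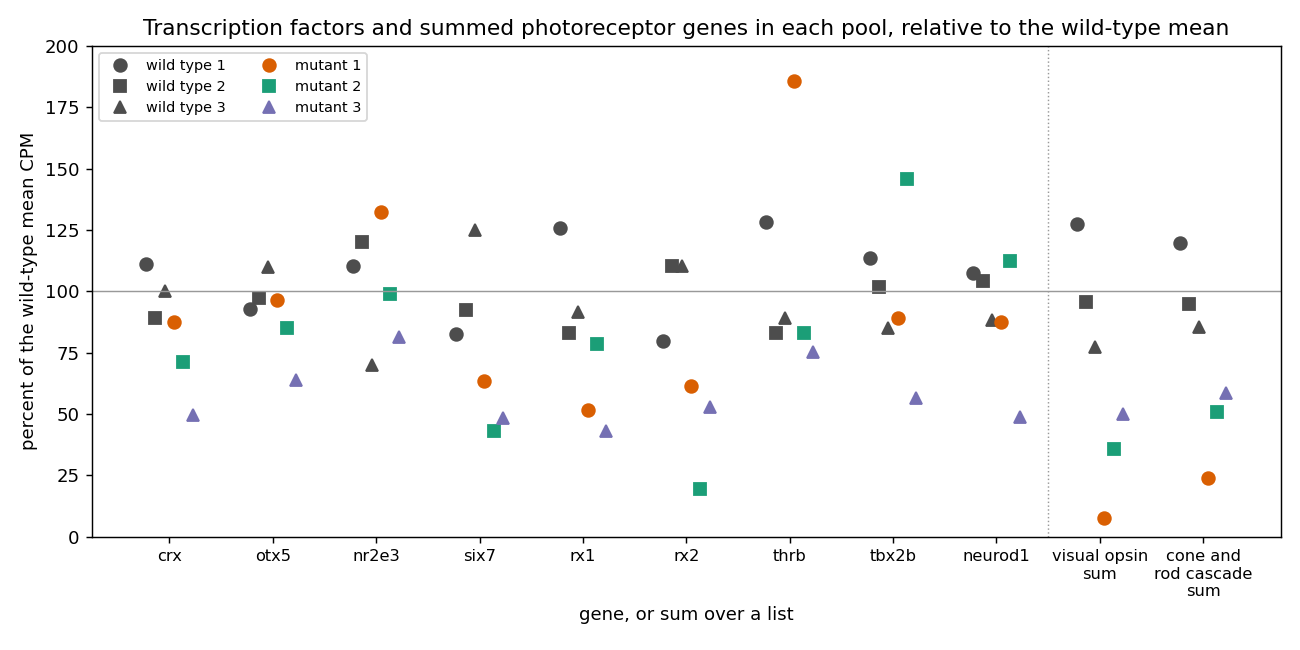
Level in each of the 6 pools as a percentage of the wild-type mean (vertical axis) for 9 transcription factor genes and for the summed CPM of the visual opsin genes and of the cone and rod cascade genes (horizontal axis, after the dotted line). Mutant replicate 1 has the lowest sums, at 7.69% and 23.9%, with crx at 87.5%, whereas mutant replicate 3 has the lowest crx, at 49.7%, with an opsin sum of 49.8%.

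The order of the mutant pools differed between crx and the opsin sum, while neither the regulators nor the targets shared a single order. Summed over the 10 opsin genes, the mutant pools had 498.4, 2308 and 3229 CPM, or 7.69%, 35.6% and 49.8% of the wild-type mean, so mutant replicate 1 was lowest and replicate 3 highest. In the same pools crx was at 87.5%, 71.2% and 49.7% of its wild-type mean, the reverse order. In mutant replicate 1, otx5 was at 96.6%, nr2e3 at 132% and thrb at 186% of their wild-type means, while six7, rx1 and rx2 were at 63.6%, 51.5% and 61.2%. Mutant replicate 3 was the lowest library for 6 of the 10 regulators, and mutant replicate 1 for none. For the opsins, mutant replicate 1 was the lowest library in 9 of 9 genes tested. For the cone list it was so in 16 of 23, counting a gene at 0 there and in wild-type replicates 1 and 2. Over all transcripts tested, mutant replicate 1 was the lowest library for 16% and mutant replicate 3 for 18.1%. In these counts a tie went to the first mutant pool that shared it, so the 16% includes ties. Mutant replicate 3 was also the lowest library for 8 of 12 ganglion cell genes and 13 of 18 retinal progenitor genes.

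Relative to crx in the same library, the opsin sum was 13.0, 12.1 and 8.69 times the CPM of crx in the wild-type pools and 0.992, 5.65 and 11.3 times in the mutant pools. Of the mutants, only replicate 3 fell inside the range of the wild types. The difference of mean log2 ratios was -1.48 (exact two-sided permutation p = 0.2, n = 3 each). It was -0.47 without mutant replicate 1 and -2.23 without mutant replicate 3, so a single pool set much of its size. Ratios of the cone and rod cascade sum to crx were 16.3, 16.2 and 12.9 in wild type and 4.14, 10.8 and 17.8 in mutants. The difference in mean log2 ratio was -0.70 (exact two-sided permutation p = 0.4, n = 3 each), and -0.12 without mutant replicate 1. This sum includes gnb1b, the rod-list gene of largest mean CPM. In mutant replicates 1 to 3, gnb1b gave 364.5, 1070 and 291.2 of the summed 2077, 4409 and 5083 CPM. In wild-type replicates 1 to 3 it gave 618.0, 618.9 and 455.9 of 10388, 8246 and 7441 CPM. How much of this RNA came from cells other than photoreceptors was not tested. Opsin RNA was thus further below its wild-type mean than crx RNA in mutant replicates 1 and 2, and about equally far below it in replicate 3.

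Other transcription factors of photoreceptors and their precursors, 24 genes tested, had a median log2 fold change of -0.13. At an unadjusted p below 0.05, 3 were lower and 0 higher, against 4.61% and 4.18% of all transcripts. The 3 were otx2b, an Otx gene upstream of crx in the vertebrate retina (185.8 ± 39.6 CPM in the wild types and 121.8 ± 27.7 CPM in the mutants, SD, n = 3 each), rorab, a retinoid-related orphan receptor gene, and sall1a, a zinc-finger gene. Their log2 fold changes were -0.61 (SE 0.25), -0.60 (SE 0.18) and -0.72 (SE 0.21), each without overlap between genotypes. The paralog of tbx2b, tbx2a, was also separated, at 125.8 ± 18.9 and 91.3 ± 20.3 CPM (SD, n = 3 each), or -0.46 on the log2 scale (SE 0.23). The most abundant of the list, nr2f2 and nr2f1a, orphan nuclear receptor genes of wide expression, had log2 fold changes of -0.08 and 0.17 with overlapping pools. As among the 10 genes, mutant replicate 3 was the lowest library for 15 of the 24.

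Eye field transcription factors, which specify the optic vesicle before photoreceptors form, had a median of -0.42 on the log2 scale over 18 genes tested. There were 6 lower and 0 higher at an unadjusted p below 0.05, against 4.61% and 4.18% of all transcripts. For 8 genes every mutant pool was below every wild-type pool, against 9.08% of all. Among the 6 were six3a (-0.67, SE 0.27) and six3b (-0.74, SE 0.27), homeobox genes of the optic vesicle and forebrain, and hmx1 (-0.88, SE 0.32) and hmx4 (-0.62, SE 0.23), which act in the eye and in sensory ganglia. The gene with the largest separated change on the list was foxg1a, a forkhead gene of the telencephalon and nasal retina, from 48.5 ± 9.17 to 25.1 ± 5.96 CPM (SD, n = 3 each), or -0.95 on the log2 scale (SE 0.26). The homeobox genes six6a (-0.61, SE 0.30), six6b (-0.57, SE 0.22) and rx3 (-0.51, SE 0.34) were also lower without overlap. Other homeobox genes of the list overlapped between genotypes, among them pax6a (0.00, SE 0.34), pax6b (-0.14, SE 0.36), lhx2b (-0.24, SE 0.32) and meis2b (0.11, SE 0.28). Of these, six6b, rx3, pax6a, pax6b and lhx2b were picked after their values were seen. In the other direction, mab21l2, an eye and midbrain gene, had 365.1 ± 81.0 and 590.1 ± 247 CPM with overlapping pools. None passed the adjusted threshold in edgeR.

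**Figure D4:**
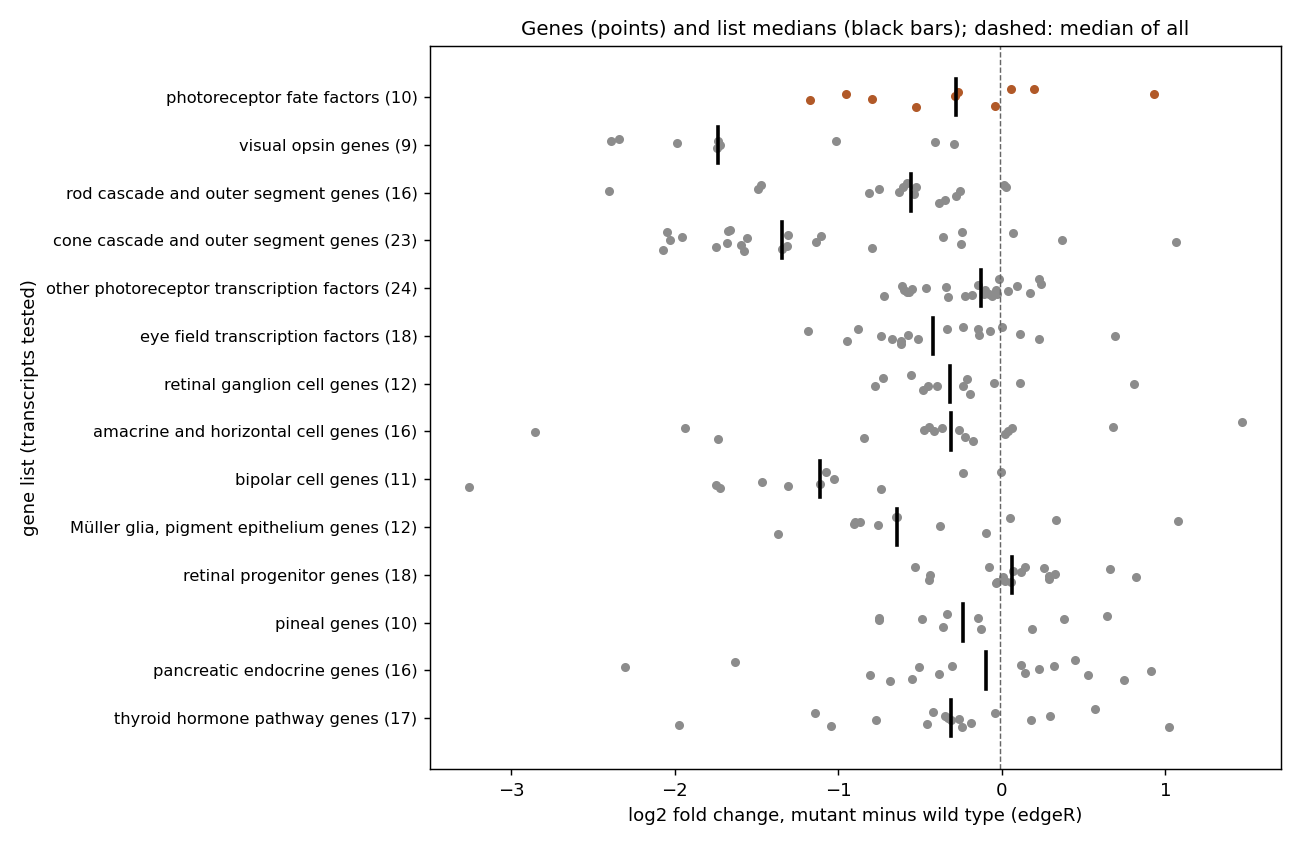
Log2 fold change of each tested gene (horizontal axis) in the 10 photoreceptor fate factors and 13 other gene lists (vertical axis, number tested in brackets), with the median of each list as a black bar. The medians of the opsin, cone cascade and bipolar cell lists lie at -1.74, -1.35 and -1.11, whereas that of the fate factors is -0.28 and that of the retinal progenitor list 0.06.

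Markers of other retinal cells were read from the same libraries, because the 10 genes share their tissue with them. Their part in the results above was not tested. Bipolar cell genes had a median of -1.11 on the log2 scale over 11 genes, all of them below 0. There were 3 lower at an unadjusted p below 0.05 and 6 separated, against 4.61% and 9.08% of all transcripts. Among these were trpm1a, a channel gene of ON bipolar cells (-1.75, SE 0.37), and gnao1b, a G protein gene of neurons in general (-1.07, SE 0.26), both also called by DESeq2. The bipolar median was -2.00 without mutant replicate 3 and -0.86 without mutant replicate 1. The bipolar homeobox gene vsx1 overlapped between the genotypes (332.5 ± 43.1 and 281.8 ± 66.1 CPM, SD, n = 3 each). For 12 genes of Müller glia and the pigment epithelium the median was -0.64. Of these, 1 was lower at an unadjusted p below 0.05 and 1 was separated, against 4.61% and 9.08% of all transcripts. The separated gene was rlbp1a, a retinoid-binding protein gene (-0.90, SE 0.27), whereas 3 of the 12 lay above 0, up to 1.08. The median of the 12 was -0.27 without wild-type replicate 1, -0.36 without mutant replicate 2 and -0.95 without mutant replicate 3.

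Ganglion cell genes (median -0.32, 12 genes) and amacrine and horizontal cell genes (median -0.31, 16 genes) showed few differences. At an unadjusted p below 0.05, 0 and 1 were lower, against 4.61% of all transcripts, and 0 and 1 higher, against 4.18%. The summed CPM of the ganglion list was 71.7%, 115.8% and 61.4% of the wild-type mean in mutant replicates 1 to 3, and that of the amacrine and horizontal list 70.6%, 127.4% and 59.6%. These sums were thus highest in mutant replicate 2 and lowest in replicate 3, as were neurod1 and tbx2b. Of the 16 amacrine and horizontal genes, 1 was lower in every mutant pool, the connexin gene gja9b (cx52.9), and 1 was higher, ptf1a. Over all transcripts these shares were 9.08% and 7.71%. Log2 fold changes over that list ran from -2.86 to 1.47. The highest of these belonged to ptf1a, a factor of the amacrine and horizontal lineage (SE 0.45, edgeR adjusted p = 0.469). This gene was low in both genotypes, at 3.74 ± 0.987 CPM in wild types and 10.3 ± 4.03 CPM in mutants (SD, n = 3 each). It does not stand for the list, in which 11 of the 16 genes lay below 0 and 5 above. How much of the ptf1a RNA came from the retina was not tested.

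Retinal progenitor genes, many of them shared with the brain, had a median of 0.06 over 18 genes, or -0.06 under scaling by total counts. Of these, 0 were lower and 1 higher at an unadjusted p below 0.05, against 4.61% and 4.18% of all transcripts. The cell cycle gene ccnd1 had 544.1 ± 119 and 649.5 ± 300.2 CPM (SD, n = 3 each), and fabp7a, a fatty acid binding protein gene of neural progenitors and glia, 1764 ± 230.0 and 1785 ± 442 CPM (SD, n = 3 each). Mutant replicate 3 was the lowest library for 13 of these 18 genes.

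The pineal organ also expresses crx and otx5. Its own markers were low in every library, with 15.1 to 23.3 CPM for aanat2, the enzyme gene of melatonin synthesis, and 2.30 to 26.6 CPM for the pineal opsin gene exorh. Neither gene was separated between the genotypes, and the median over the 10 pineal genes tested was -0.24 on the log2 scale. Of the 10, 0 had an unadjusted p below 0.05, against 4.61% lower and 4.18% higher over all transcripts.

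Endocrine pancreas genes, read because neurod1 is active there, had a median of -0.10 over 16 genes. Of these, 0 were lower and 1 higher at an unadjusted p below 0.05, against 4.61% and 4.18% of all transcripts. The insulin gene ins was low, at 1.12 to 2.80 CPM in the wild types and 0.302 to 0.456 CPM in the mutants. The 1 higher gene was mnx1, a homeobox gene of motor neurons and the pancreas (5.25 ± 0.594 and 9.88 ± 1.00 CPM, SD, n = 3 each). Of the thyroid hormone pathway, read beside thrb, 17 genes were tested with a median of -0.31 and 0 at an unadjusted p below 0.05. The nuclear corepressor gene ncor1 had a log2 fold change of -0.31 with overlapping pools, and crym, a thyroid hormone binding protein gene, had 3.49 ± 0.196 and 1.58 ± 0.103 CPM (SD, n = 3 each) without overlap.

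The transcripts whose pattern was most like that of crx over the 6 libraries, among 9783 with a mean of at least 5 CPM, were zgc:136971, cetn3, mrpl28, wdr45 and vps33a. Pearson correlations of log2 CPM were between 0.96 and 0.99. With 6 points that share their libraries, 50 transcripts exceeded 0.9, and these values only describe likeness.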

How the data were processed

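The authors deposited, for each of 6 libraries, estimated counts for RefSeq transcripts, per the file headers not scaled for depth or length. Libraries were strand-specific, paired-end and from polyadenylated RNA. The submitters' processing notes list kallisto 0.42.4, bcl2fastq 2.20.0.422 and danRer10 without a role; the RefSeq release is not given in the sources used here. Between 15.8% and 18.3% of values in a library were not whole, and all were rounded. Symbols came from a RefSeq table of GRCz12tu, used for names only, which paired 14740 of 15455 transcripts.

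Mutants were compared with wild types in edgeR 4.0.16 (R 4.3.3) by its quasi-likelihood test, after filterByExpr and with TMM scaling, adjusted over all transcripts tested. The threshold was 0.05. Standard errors are the log2 fold change divided by the square root of F, and 95% intervals use the t quantile of the fit. A gene with several transcripts was represented by that with the largest mean count. Levels are not scaled for length and are not compared between genes. Ratios to crx were tested by exact permutation over libraries.

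The members and gene lists were chosen with earlier results of these data known. By a fixed rule the text could name every member and opsin gene, the mutated genes, and in each other list the 2 genes of largest mean CPM and up to 6 with separated groups and a mean of at least 1 CPM. No row paired with hnrnpul1l, which was not analysed here. Alternatives were RLE and total-count scaling, DESeq2 1.42.0, voom in limma 3.58.1, the study's unadjusted equal-variance test on total-scaled counts, other filters, summing transcripts by gene, blocking on the replicate number, and each library left out. Nothing states that pools of the same genotype came from separate clutches, so p-values measure the spread between these pools. No sequence was used here.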

Additional observations from a re-analysis of the deposited data

How the results depend on the processing

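Over the 15 alternatives, the log2 fold changes of crx, otx5, six7, rx1, rx2 and neurod1 stayed below 0. That of nr2e3 was -0.059 under total-count scaling and -0.059 under the unadjusted equal-variance test of total-scaled counts. With each library left out in turn, nr2e3 lay between -0.15 and 0.21, tbx2b between -0.43 and 0.23, and thrb between -0.31 and 0.43. The number of transcripts called was 0 in edgeR under each scaling, each filter, the sum per gene and in limma-voom, 0 to 1 with a library left out, 214 in DESeq2 and 1546 by the unadjusted equal-variance test. The number of the 10 genes with an unadjusted p below 0.05 was 3 or 4 in the other fits and 1 to 3 with a library left out, and their median log2 fold change lay between -0.56 and -0.074. The cause of these shifts was not tested. Leaving out a library moved the log2 opsin-to-crx difference between -2.23 and -0.47 and the cascade-to-crx difference between -1.17 and -0.12. With the sum of crx, otx5, nr2e3 and six7 as the denominator, a choice made after seeing the data, the differences were -1.51 and -0.73. The median log2 fold changes of the other lists also moved when a library was left out: the retinal progenitor median lay between -0.03 (without mutant replicate 1) and 0.25 (without mutant replicate 3), the pancreatic endocrine median between -0.36 (without mutant replicate 3) and 0.08 (without mutant replicate 2), the amacrine and horizontal median between -0.62 (without mutant replicate 2) and -0.14 (without mutant replicate 3), and that of the other photoreceptor transcription factors between -0.26 (without mutant replicate 2) and -0.08 (without mutant replicate 3). Without mutant replicate 3 the ganglion and pineal medians were -0.15 and -0.06, and without mutant replicate 1 the thyroid median was -0.16. The bipolar median was -1.58 with the replicate block and -1.57 in limma-voom. In the same 2 fits the pineal median was -0.64 and -0.52, and the pancreatic endocrine median -0.59 and -0.54. Deviations from the group means correlated at -0.09, 0.13 and 0.38 between same-numbered libraries of the 2 genotypes. Between libraries of different number they correlated at -0.37 to 0.23. These few values do not settle whether the numbers pair the pools. With the replicate number as a block, 0 transcripts were called, 4 of the 10 genes had an unadjusted p below 0.05, crx having joined at 0.0398 in edgeR, and their median was -0.33. The block left the differences to crx at -1.48 and -0.70. Among the 10 genes only nrl had counts of 0, beside up to 100 counts in other libraries, and the reason was not tested. The others had at least 102 counts in every library.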
